A study of Homo sapiens with 5 samples.

Results

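The genes described here encode the proteins of the mitochondrial ribosome, taken as every row of the count table whose symbol is MRPL or MRPS followed by a number and an optional letter. The rule found 70 genes in 71 rows of a table of 13638 rows and 13597 symbols, 44 named MRPL for the large subunit (45 rows, because MRPL45 has 2) and 26 named MRPS for the small subunit. The 5 libraries hold ribosome footprints from HAP1 cells, a near-haploid human line derived from a chronic myeloid leukaemia. The wild-type group has 2 libraries, and the group with ZCCHC4 knocked out, a gene for a methyltransferase of cytosolic ribosomal RNA, has 3. No treatment is named for either group, and the labels do not say whether libraries of a genotype came from separate cultures or from more than 1 knockout clone. The p-values therefore cover only the variation among these 5 libraries, and that may be technical. A footprint count follows both the amount of an mRNA and its occupancy by ribosomes, and these cannot be told apart here. All 71 rows passed the filter on low counts.

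The wild-type libraries totalled 5302160 and 4887380 counts and the knockout libraries 29191146, 16940732 and 31557573, so depth moved with genotype. Values are CPM, counts scaled to a common library size with TMM factors (0.935 to 1.10), and 1 count was worth 0.187 CPM at most. ZCCHC4 was at 16.0 and 13.3 CPM in wild type and 3.85, 3.41 and 4.98 CPM in the knockout (log2 fold change -1.82 ± 0.20 SE, edgeR adjusted p = 7.27e-05). Knockout replicate 2 stood apart from the other knockout libraries, with a chi-square divided by its degrees of freedom of 27.7 and 24.6 against replicates 1 and 3, which gave 2.97 against each other, and the wild-type pair gave 1.14. BCR and ABL1, the fusion partners of the parental leukaemia, were at 6.83 and 1.15 CPM in wild type. Of 7 blood cell markers 3 had a row, and of these only TAL1 passed the filter, at 8.54 CPM in wild type and 5.43 in the knockout. Of 3 epithelial markers only EPCAM passed the filter, at 1.35 CPM in wild type and 4.72 in the knockout.

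The mitochondrial ribosome makes the few membrane proteins of oxidative phosphorylation that mitochondrial DNA encodes. Its RNAs are made inside the organelle, while all of its proteins are encoded in the nucleus, translated by cytosolic ribosomes and imported. Its large subunit joins amino acids and holds the exit tunnel, and its small subunit binds the mRNA and reads the codons. Both contain a core shared with bacterial ribosomes and many proteins found only in mitochondria. The footprints counted here therefore report how cytosolic ribosomes occupied the mRNAs of mitochondrial ribosomal proteins, not the activity of the mitochondrial ribosome.

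Comparing the genotypes asks which of these genes had a higher or lower TMM-scaled level of cytosolic footprints in the knockout libraries. Of the 71 rows, 32 rose, 11 fell and 28 missed the threshold in edgeR's quasi-likelihood test (Benjamini-Hochberg adjusted p under 0.05 over all 11205 rows tested). Over all tested rows 60% passed, 30.2% as rises and 29.8% as falls, so the share of the members that changed in either direction, 60.6%, was near the background. Their split was 45.1% rises and 15.5% falls. At 2-fold or more 6 members, or 8.45%, passed, beside 23.2% of all tested rows. The knockout libraries all lay above the wild-type libraries for 36 members and all below for 18, and they overlapped for 17; over all tested rows 76.4% did not overlap, 38.5% above and 37.9% below. The median log2 fold change was 0.19, with the middle 50% between -0.14 and 0.61, beside 0.02 for all tested rows. When library totals alone set the scaling, which lowers the median of all tested rows to -0.20, 24 members rose and 23 fell, and the members' median was -0.03. Over all tested rows that scaling called 21.3% higher and 40.7% lower. Under each of RLE, upper-quartile and library-total scaling, 24 of the 32 rises and all 11 falls were kept. These scalings put the median of all tested rows at 0.0037, -0.049 and -0.20, below the 0.02 of the main scaling. Each thus moved fold changes downwards, which favours keeping falls, so the falls were not shown to be firmer than the rises.

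Calls went in both directions among large-subunit genes, and 14 of the 16 calls in the small subunit were rises. The MRPL rows held 18 rises, 9 falls and 18 that missed the threshold, and their median log2 fold change was 0.08. The MRPS rows held 14 rises, 2 falls and 10 that missed it, and their median was 0.35. As shares, 40% of MRPL rows rose and 20% fell, and 53.8% of MRPS rows rose and 7.69% fell, beside 30.2% and 29.8% of all tested rows. The share changed in either direction, 60% of MRPL and 61.5% of MRPS rows, was near the 60% of all tested rows. The MRPL rises ran from 0.25 to 1.31 and its falls from -1.13 to -0.41, whereas the MRPS rises ran from 0.21 to 1.16 and its 2 falls were -0.31 and -0.30. With library totals MRPL rows held 13 rises and 18 falls with a median of -0.14, and MRPS rows 11 rises and 5 falls with a median of 0.13. Without knockout replicate 2 the MRPL median was -0.0048, with 20 rises and 15 falls. In that fit 37.3% of all tested rows were called higher and 35.9% lower. The 2 MRPS falls, MRPS9 and MRPS10, did not pass when 1 wild-type library, whichever it was, was left out. Such fits leave 1 wild-type library and also called fewer of all tested rows. A call lost there is thus not a trait of these genes alone. The difference between the subunits is given as counts and medians only and was not tested.

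**Figure D1:**
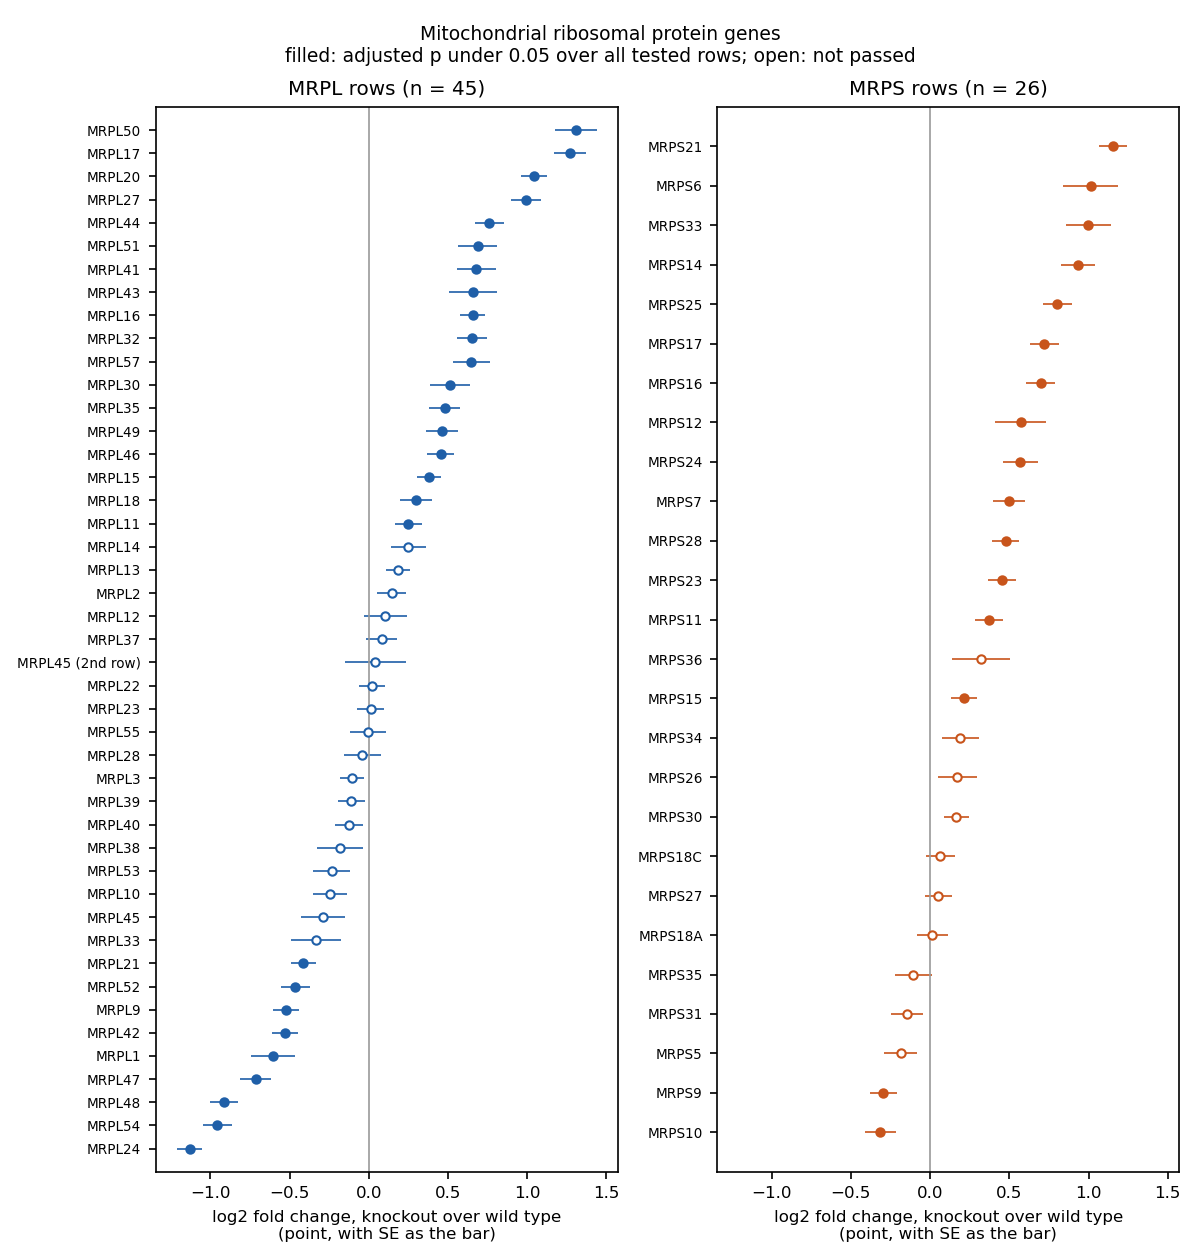
Log2 fold changes (knockout over wild type) of the 45 MRPL and 26 MRPS rows, ranked within each subunit, with the SE as a bar; filled points passed the test. The MRPL rows spread from -1.13 to 1.31, while the MRPS rows spread from -0.31 to 1.16; the second row of MRPL45 is a transcript not placed on the primary assembly.

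Among large-subunit genes the rises with the largest fold changes were in MRPL50, MRPL17, MRPL20 and MRPL27. MRPL50, a protein found only in mitochondria (ENST00000374865, GRCh38 chromosome 9, 101387633 to 101398614), was at 32.1 and 32.9 CPM in wild type and 89.3, 69.2 and 82.4 CPM in the knockout. Replicate 2 was the lowest of the knockout libraries, and the log2 fold change was 1.31 ± 0.13 (SE, edgeR adjusted p = 3.73e-05). The largest rises were named among members whose genotypes do not overlap, as 76.4% of all tested rows did not. Their lack of overlap is therefore not a result. MRPL17, a core protein near the exit of the peptide tunnel (ENST00000288937, chromosome 11, 6680782 to 6683401), was at 44.2 and 49.8 CPM and then 108, 121 and 111 CPM (1.27 ± 0.10). MRPL20, a core protein that binds the large ribosomal RNA early in assembly (ENST00000344843, chromosome 1, 1401908 to 1407313), had wild-type levels of 75.04 and 76.2 CPM and knockout levels of 154, 159 and 154 CPM (1.04 ± 0.08). The libraries of a genotype were closer to each other here than for MRPL50. MRPL27, whose bacterial counterpart reaches towards the peptidyl transferase centre (ENST00000225969, chromosome 17, 50367867 to 50373214), was at 43.1 and 38.1 CPM and then 82.0, 80.8 and 80.02 CPM (0.99 ± 0.10).

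The next 4 rises were in proteins found only in mitochondria. MRPL44, a protein with a fold related to RNase III, had a wild-type mean of 68.6 ± 0.921 CPM (SD, n = 2), a knockout mean of 116 ± 6.29 CPM (SD, n = 3) and a log2 fold change of 0.76 ± 0.09 (SE). MRPL51, MRPL41 and MRPL43 had log2 fold changes of 0.69, 0.68 and 0.66. Their knockout libraries were more spread, with MRPL51 lowest in replicate 2 (225, 179 and 238 CPM) and MRPL41 and MRPL43 highest there (94.6, 116 and 92.1 CPM, and 42.4, 58.1 and 47.7 CPM). After subtraction of the median change of tested rows of like coding length, the values of MRPL51 and MRPL41 were 0.42 and 0.38. Leaving out wild-type replicate 2 ended the call for MRPL43, in a fit that also called fewer of all tested rows.

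The promoters of 3 of these rises and of 1 gene that fell are shown because they hold the letters of factors known for driving genes of mitochondrial proteins, NRF1 (the 10 letters in capitals in MRPL17) and GABP (CCGGAAGT), and because the genes with the GABP letters moved in opposite directions. Each sequence is the 150 bases before the outermost annotated start, from RefSeq on GRCh38.p14, written 5′ to 3′ on the minus strand on which all 4 genes lie, with the searched letters in capitals (chr11:6683402-6683551, chr1:1407314-1407463, chr17:50373215-50373364 and chr3:179604655-179604804).
MRPL17: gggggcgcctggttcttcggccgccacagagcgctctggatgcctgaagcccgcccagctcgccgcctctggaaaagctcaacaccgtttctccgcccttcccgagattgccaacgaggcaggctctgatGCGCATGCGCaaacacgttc
MRPL20: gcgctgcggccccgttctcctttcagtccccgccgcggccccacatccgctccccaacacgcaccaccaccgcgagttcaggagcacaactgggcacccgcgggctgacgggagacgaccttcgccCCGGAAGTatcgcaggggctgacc
MRPL27: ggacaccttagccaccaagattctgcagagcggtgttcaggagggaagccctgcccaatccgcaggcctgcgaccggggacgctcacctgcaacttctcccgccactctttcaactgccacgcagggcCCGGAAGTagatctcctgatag
MRPL47: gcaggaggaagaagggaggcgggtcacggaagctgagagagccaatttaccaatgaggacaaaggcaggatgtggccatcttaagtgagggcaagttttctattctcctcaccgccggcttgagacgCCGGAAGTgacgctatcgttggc

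In MRPL17 the letters began 20 bases before the start, and in MRPL20, MRPL27 and MRPL47 they began 24, 22 and 23 bases before it. RefSeq promoters, 250 bases before to 50 after a start, were matched by symbol for 61 of the 70 genes. With both strands searched, the GABP letters were in 17.1% of the members' 70 promoters, beside 7.34% of the promoters of tested rows and 4.14% of all 35116 promoters in the table. The NRF1 letters were in 1.43%, 1.97% and 1.24%, with MRPL17 as the sole member. The 11 members with the GABP letters had a median log2 fold change of 0.19, and 5 of them rose, 2 fell and 4 did not pass. All member rows together also had a median of 0.19, with 45.1% rises and 15.5% falls. The share changed in either direction was 60.6% of all member rows and 60% of all tested rows. The rises were MRPL16, MRPL18, MRPL20, MRPL27 and MRPL51, and the falls were MRPL47 and MRPL52. Neither motif contains the other, and a match is a description of letters, not of binding.

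Of the 11 falls 9 were in the large subunit. MRPL24, a core protein at the rim of the tunnel exit (ENST00000368211, chromosome 1, 156737305 to 156741131), was at 145 and 156 CPM in wild type and 68.5, 67.4 and 69.4 CPM in the knockout. The knockout libraries lay close together at less than every wild-type value, with a log2 fold change of -1.13 ± 0.08 (SE, edgeR adjusted p = 5.10e-06). MRPL54, a protein of the stalk region found only in mitochondria (chromosome 19, 3762664 to 3767565), was at 78.3 and 83.8 CPM and then 41.5, 39.8 and 43.8 CPM (-0.96 ± 0.09). MRPL48, a protein of the central protuberance (chromosome 11, 73787316 to 73864611), was at 137 and 139.7 CPM and then 76.1, 67.6 and 77.0 CPM (-0.91 ± 0.09). These 3 genes were named among members whose genotypes do not overlap, as 76.4% of all tested rows did not, so their lack of overlap is not a result.

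MRPL47, the counterpart of a bacterial protein beside the tunnel exit (chromosome 3, 179588285 to 179604654), was at 216 and 211 CPM in wild type, the highest level among the members that fell. In the knockout it was at 140.3, 114 and 136 CPM (-0.71 ± 0.10). MRPL1, the protein of the mobile L1 stalk, was at 123 and 119.7 CPM and then 94.4, 65.6 and 79.0 CPM (-0.60 ± 0.14), and MRPL42, found only in mitochondria, had a log2 fold change of -0.53 ± 0.08. The knockout libraries of MRPL1 were spread over a wider range than those of MRPL42 (118, 106 and 110.4 CPM). The MRPL1 call was lost without wild-type replicate 1, in a fit that also called fewer of all tested rows. MRPL9, MRPL52 and MRPL21 also fell, by 0.52, 0.46 and 0.41 on the log2 scale.

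**Figure D2:**
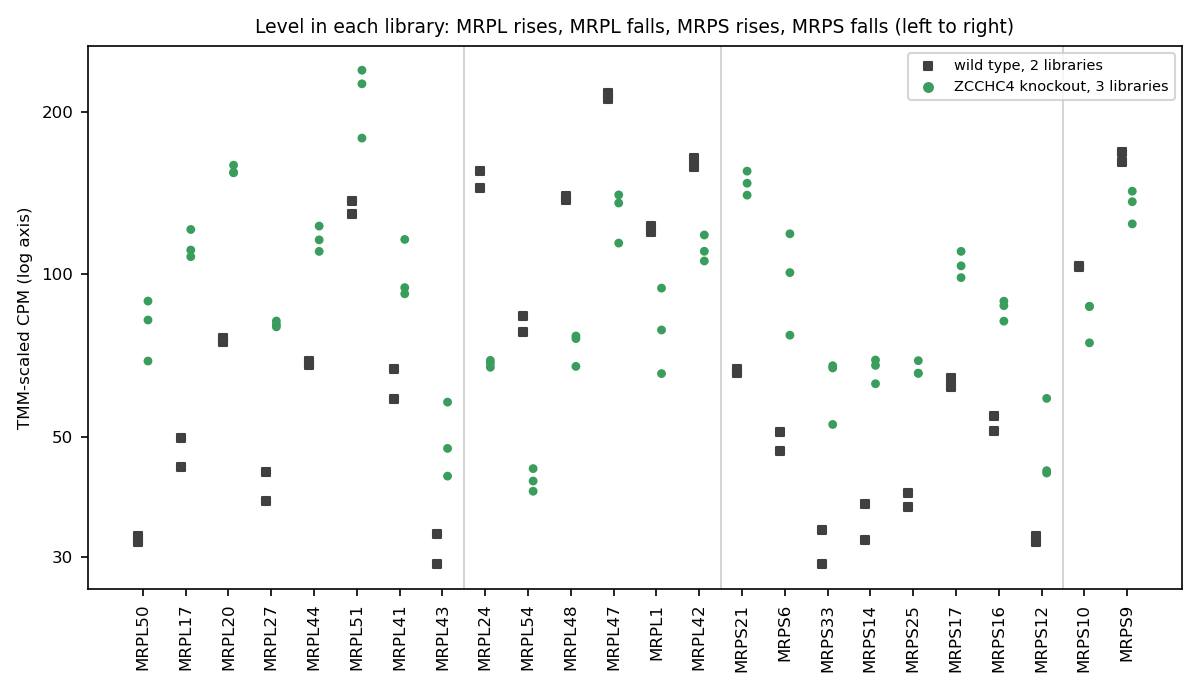
TMM-scaled CPM (log axis) in each library for 24 members, the 8 largest MRPL rises, 6 largest MRPL falls, 8 largest MRPS rises and both MRPS falls, squares for the 2 wild-type and circles for the 3 knockout libraries. These members were chosen among those whose genotypes do not overlap; MRPL24 is at 145 and 156 CPM against 67.4 to 69.4, and MRPS21 at 65.7 and 66.8 CPM against 140.1 to 155.

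Small-subunit rises included core and mitochondria-specific proteins. MRPS21, a small core protein (ENST00000614145, chromosome 1, 150293720 to 150308979), had wild-type levels of 66.8 and 65.7 CPM and knockout levels of 140.1, 147 and 155 CPM (log2 fold change 1.16 ± 0.09 SE, edgeR adjusted p = 7.75e-06). It has 8 annotated pseudogenes, so its value is uncertain where counting could share reads. MRPS6, a core protein of the platform (chromosome 21, 34073523 to 34143034), was at 47.3 and 51.2 CPM and then 101, 77.2 and 119 CPM (1.01 ± 0.17). Its knockout libraries had the widest spread of all members, a coefficient of variation of 21.1%. MRPS33, found only in mitochondria, stood at 29.2 and 33.8 CPM and then 67.2, 52.8 and 67.8 CPM (1.00 ± 0.14).

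MRPS14, a core protein of the head, was at 32.3 and 37.7 CPM in wild type and 62.8, 69.5 and 67.9 CPM in the knockout (0.93 ± 0.11). MRPS25, found only in mitochondria, and the core proteins MRPS17 and MRPS16 had log2 fold changes of 0.80, 0.72 and 0.70, each with an SE of 0.09. With the change of tested rows of like coding length subtracted, MRPS17, MRPS16 and MRPS12 were at 0.44, 0.39 and 0.28. The core protein at the decoding centre, MRPS12, was at 32.1 and 32.9 CPM and then 43.4, 59.03 and 43.0 CPM, with replicate 2 the highest (0.57 ± 0.16, adjusted p = 0.0126). Its call was lost with library totals (edgeR adjusted p = 0.0939). It was also lost when either wild-type library was left out, in fits that called fewer of all tested rows. The falls, MRPS10 and MRPS9, are core proteins of the head. MRPS10 was at 104 and 103 CPM and then 87.2, 74.8 and 87.3 CPM, and MRPS9 at 168 and 161 CPM and then 136, 124 and 143 CPM. Their edgeR adjusted p values were 0.0192 and 0.0151. Neither passed when either wild-type library was left out, where fewer of all tested rows passed too.

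Grouped by ancestry, the core proteins of the small subunit had the highest share of rises among these 4 groups. These 15 genes held 11 rises and 2 falls, and their median log2 fold change was 0.50. The 10 MRPS genes listed as found only in mitochondria, with MRPS18A left out, gave 3 rises, no fall and a median of 0.18. They include MRPS30 and MRPS36, which did not pass and, as given below, are not placed in the small subunit. In the large subunit, 26 core genes gave 10 rises and 5 falls with a median of 0.13, and 19 mitochondria-specific rows gave 8 rises and 4 falls with a median of 0.04. The share changed in either direction was 86.7% for the small-subunit core, 30% for the other small-subunit genes, 57.7% for the large-subunit core and 63.2% for the other large-subunit rows, beside 60% of all tested rows. In the same order rises made up 73.3%, 30%, 38.5% and 42.1%, beside 30.2% of all tested rows. The median coding length was 504 nt in the small-subunit core and 637.5 nt in the other small-subunit genes. Fold changes followed length among MRPS genes, as given below, and ancestry was not separated from length. Directions were mixed within each region of the large subunit. In the stalk, which recruits translation factors, MRPL11 rose (0.25 ± 0.09), MRPL54 fell, and MRPL10 (-0.24), MRPL53 (-0.23) and MRPL12 (0.11) did not pass. The MRPL11 call was lost in 10 of 15 alternatives, with adjusted p = 0.759 under library totals. MRPL10 passed in 5 alternatives, with a log2 fold change of -0.46 under library totals (adjusted p = 0.00533) and -0.29 without knockout replicate 2 (adjusted p = 0.00178). Among the 7 rows of tunnel exit proteins MRPL17 rose, MRPL24 and MRPL47 fell, and MRPL22 (0.02), MRPL23 (0.01) and both rows of MRPL45 (-0.29 and 0.04) did not pass. In the central protuberance MRPL27, MRPL46 and MRPL18 rose by 0.99, 0.45 and 0.30, MRPL48 fell, and MRPL38, MRPL40 and MRPL55 did not pass. In the head of the small subunit 4 of 8 genes rose (MRPS33, MRPS14, MRPS24 and MRPS7) and 2 fell (MRPS10 and MRPS9).

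Some MRPS symbols name proteins found elsewhere. MRPS30 and MRPS18A have been placed in the large subunit by structures of the ribosome, and MRPS36 is now known as a subunit of a tricarboxylic acid cycle enzyme complex. MRPS30 was at 89.4 and 92.8 CPM in wild type and 103, 103 and 100.3 CPM in the knockout and did not pass (0.16 ± 0.08, adjusted p = 0.104). It passed without knockout replicate 2 (adjusted p = 0.0152). MRPS18A was at 47.6 and 53.2 CPM and then 53.2, 49.99 and 49.5 CPM (0.01 ± 0.10), and its relative MRPS18C at 137 and 132 CPM and then 147, 128 and 147 CPM (0.06 ± 0.09). MRPS18C passed without knockout replicate 2 (0.13, adjusted p = 0.0239). With all libraries the genotypes overlapped for both, and MRPS18B was not analysed here. MRPS36 had the lowest level among the small-subunit symbols, at 5.86 and 6.35 CPM in wild type and 7.81, 6.88 and 8.06 CPM in the knockout (0.32 ± 0.18, adjusted p = 0.158). With MRPS30 and MRPS18A counted in the large subunit and MRPS36 left out, 23 small-subunit genes gave 14 rises, 2 falls and a median of 0.45, and 47 large-subunit rows gave 18 rises, 9 falls and a median of 0.08.

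Fold changes followed coding length among the genes with MRPS symbols, called small-subunit here. The coding sequences of these 26 genes ran from 264 to 1320 nt. Spearman's rho between log2 fold change and coding length was -0.79, and Pearson's r with the log10 of length was -0.77. The genes include MRPS18A, MRPS30 and MRPS36, and rho for the small subunit by place in the ribosome was not computed. Taken library by library against the wild-type mean, rho was -0.77, -0.70 and -0.76. In the 15 core genes it was -0.88. By length classes chosen with the data in view, of 9 small-subunit genes with up to 500 nt of coding sequence 7 rose and none fell (median 0.72), of 10 between 500 and 750 nt 6 rose and 1 fell (median 0.41), and of 7 longer ones 1 rose and 1 fell (median -0.11). Over all tested rows, 380 of 889 in the shortest class rose and 197 fell (median 0.24), 425 of 1229 in the middle class rose and 295 fell (median 0.10), and 2566 of 9040 in the longest class rose and 2835 fell (median -0.03). The shortest, MRPS21 with 264 nt, also had the largest rise. The longest, MRPS30 with 1320 nt, did not pass, and its protein is placed in the large subunit.

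The correlation was nearer to 0 in the other lists. Over all 70 placed members rho was -0.42, and over the 26 core genes of the large subunit it was -0.41. Over 44 placed large-subunit rows rho was -0.21, with large changes of both signs among short genes (MRPL54 with 417 nt fell and MRPL41 with 414 nt rose). Over all 11158 tested rows with a coding length it was -0.16, and the cytosolic ribosomal proteins gave 0.02 for 42 large-subunit and 0.12 for 25 small-subunit genes. All of these are correlations across genes measured in the same 5 libraries, which are not independent replicates, and the difference between the lists was not tested. Level also moved with length, with rho between coding length and the average level of 0.54 for MRPS and 0.45 for MRPL rows. After subtraction of the median fold change of tested rows of like length, the medians were 0.20 for MRPS and -0.0047 for MRPL rows.

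**Figure D3:**
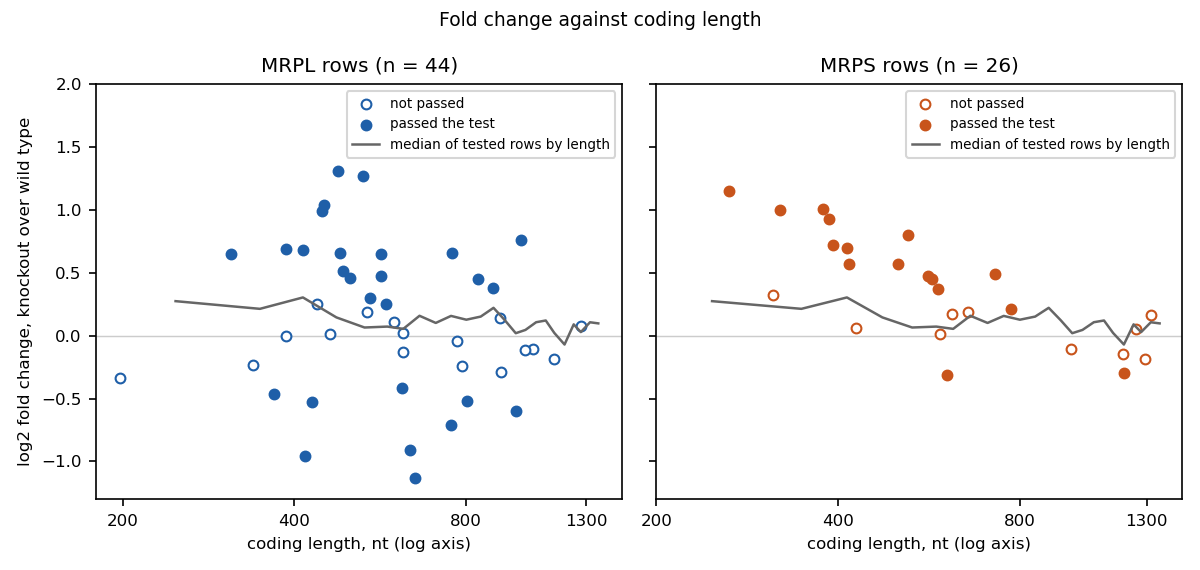
Log2 fold change against coding length (log axis) for 44 MRPL and 26 MRPS rows, filled where the test was passed, with the median of all tested rows by length as a line. The MRPS points include 1.16 at 264 nt and, among longer genes, -0.31 at 606 nt, -0.30 at 1191 nt and 0.16 at 1320 nt, while the MRPL points show both signs at most lengths.

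Summed over each subunit, the balance between the subunits shifted. MRPL rows made up 0.475% of all counts in both wild-type libraries, whereas the knockout libraries gave 0.429%, 0.428% and 0.430%. MRPS rows made up 0.226% and 0.227% in wild type, whereas the knockout libraries gave 0.235%, 0.229% and 0.240%. The Wilson 95% intervals of these shares, which cover counting error only, reached at most 0.0061 percentage points to either side, and the MRPL share was lower, and the MRPS share higher, in each knockout library than in each wild-type library. For MRPS rows the interval of knockout replicate 2 (0.227% to 0.232%) overlapped those of both wild-type libraries, so that excess was within counting error. The ratio of summed MRPL to MRPS counts, which no scaling between libraries affects, was 2.10 and 2.09 in the wild-type pair, against 1.82, 1.87 and 1.80 for the knockout replicates. The knockout mean was 0.872 of the wild-type mean, and between 0.864 and 0.880 with any library left out. On TMM-scaled CPM the MRPL sum was instead higher in the knockout, 1.05 times the wild-type sum, and the MRPS sum 1.205 times, so whether the large-subunit genes as a group rose or fell depended on the scaling.

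**Figure D4:**
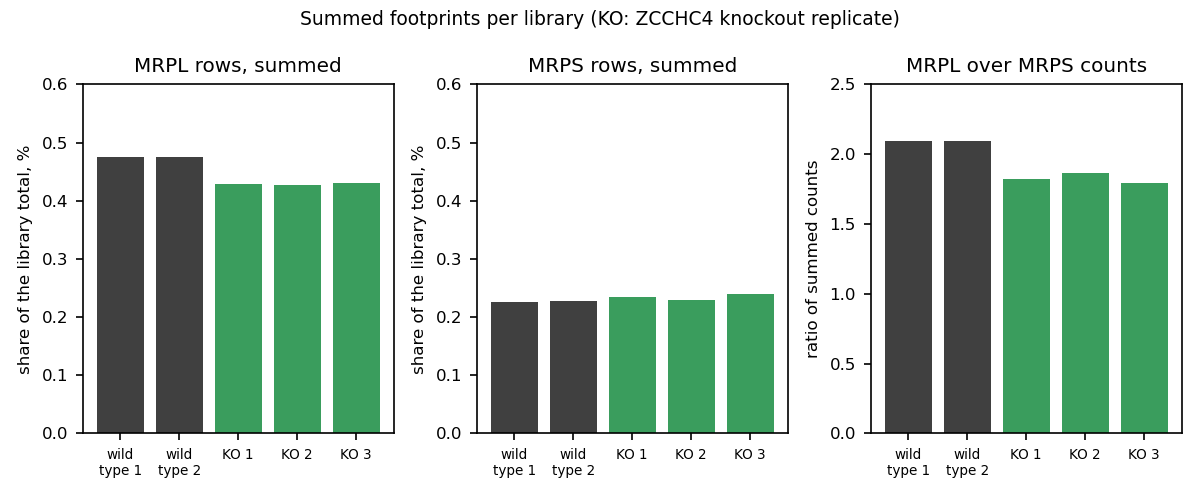
Summed MRPL and MRPS counts as a percentage of each library total, and the ratio of the sums, for the 2 wild-type and 3 knockout libraries. The ratio is 2.10 and 2.09 in wild type, against 1.80 to 1.87 for the knockout.

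Levels were compared between genes as footprint density, the mean CPM per kb of coding length. Over 70 placed rows the median density was 124 in wild type and 156 in the knockout. Among the 68 rows apart from MRPL45 and MRPS36 densities ran from 55.7 to 375 in wild type and from 47.1 to 559 in the knockout, and the SD of the log2 densities was 0.67 in both genotypes. In wild type MRPL42 had the highest density, 375 ± 9.45 (SD, n = 2), before MRPL51 at 344 ± 13.9 and MRPS18C at 314 ± 7.57. In the knockout MRPS21 at 559 ± 28.5 (SD, n = 3) and MRPL51 at 553 ± 81.1 were the highest and did not differ beyond their spread, and MRPL42 was 11th at 260 ± 14.6. MRPS21 had ranked 7th in wild type, at 251 ± 2.78. MRPL12, the stalk protein present in several copies per ribosome, had a density of 136 in wild type and 147 in the knockout, within the middle of the members. MRPL10, its anchor on the ribosome, was the lowest of the 68 rows in both genotypes, at 55.7 and 47.1. The placed MRPL45 row had 18.1 and 14.7, and its second row, whose transcript is not on the primary assembly, held 6.21 and 5.41 CPM in wild type, so reads of this gene may have been split between copies. MRPS36 had 19.6 and 24.3.

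**Figure D5:**
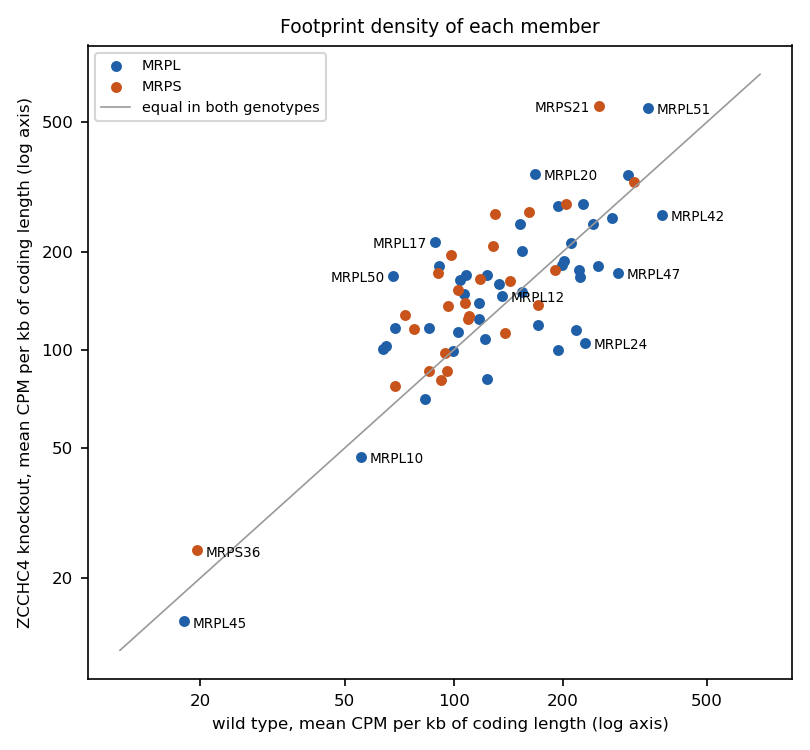
Footprint density of 70 placed rows, in CPM per kb of coding length, in the knockout against wild type on log axes, with the line of equal density. MRPS21 moves from 251 to 559, MRPL24 lies below the line at 230 and 105, and MRPL45 and MRPS36 stand apart at the bottom.

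The coefficient of variation had a median of 3.94% in wild type and 6.80% in the knockout over the 71 rows. Knockout replicate 2 was the lowest of the 3 knockout libraries for 39 members and the highest for 26, beside 43.0% and 44.0% of all tested rows. Its difference from the mean of replicates 1 and 3 on the log2 scale ran from -0.50 (MRPS6) to 0.45 (MRPL38), and the median size of the difference between replicates 1 and 3 was 0.04. Without replicate 2, 36 members rose and 17 fell, and 15 of the falls were in the large subunit. Calls over all tested rows were also more frequent then, at 37.3% higher and 35.9% lower. For MRPL38, a protein of the central protuberance, replicate 2 at 151 CPM lay above and the other knockout libraries, at 104 and 116 CPM, below both wild-type libraries (142 and 137 CPM).

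The placed members lie on 21 chromosomes. For 69 members with at least 3 other tested rows within 1 Mb, the medians of the neighbours ran from -0.90 to 0.51, and rho between a member's log2 fold change and that of its neighbours was 0.06. MRPS14 rose beside 4 neighbours with a median of -0.90, and MRPL24 fell by 1.13 beside 30 neighbours with a median of -0.23. MRPL46 and MRPS11, one gene of each subunit, start on opposite strands of chromosome 15 (88467419 and 88467453) with 33 bases between the starts. Both rose, from 71.6 to 98.0 CPM (0.45 ± 0.09) and from 62.9 to 81.3 CPM (0.37 ± 0.09), and the MRPS11 call was lost in 5 of 15 alternatives. Pseudogenes named for a member are annotated for 33 of the 70 genes, 73 in all, and the values of those genes are uncertain where counting could share reads.

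Other genes of mitochondrial translation were read from lists fixed by function. Mitochondrial ribosomal proteins with other symbols gave 2 rises and 2 falls among 6 tested, with a median log2 fold change of 0.14. The share changed in either direction, 66.7%, stood beside 60% of all tested rows. ICT1, a release factor-like protein built into the large subunit, was at 147 and 141 CPM in wild type and 78.0, 75.01 and 79.9 CPM in the knockout (-0.89 ± 0.08 SE, edgeR adjusted p = 1.88e-05). DAP3, a GTP-binding protein of the small subunit, fell from 246 to 183 CPM (-0.43 ± 0.07). Assembly factors and rRNA-modifying enzymes gave 12 rises and 1 fall among 21, with a median of 0.50, and 61.9% changed in either direction, beside 60% of all tested rows. RNMTL1, a methyltransferase of the mitochondrial large ribosomal RNA, rose from 22.8 to 56.4 CPM (1.31 ± 0.10), and MTERF3, a factor of mitochondrial ribosome assembly and transcription, from 19.6 to 56.04 CPM (1.52 ± 0.14).

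Mitochondrial translation factors gave 7 rises and 1 fall among 14, with a median of 0.33, and 57.1% changed in either direction, beside the same 60%. The recycling factor MRRF rose from 32.8 to 69.8 CPM (1.09 ± 0.13) and the elongation factor TSFM from 52.6 to 81.3 CPM (0.63 ± 0.09). Of 4 genes of mitochondrial transcription TEFM (1.96 ± 0.17) and TFAM (0.54 ± 0.12), an elongation factor and the packaging protein of mitochondrial DNA, rose and the other 2 did not pass. Thus 50% of these genes changed, beside 60% of all tested rows. Cytosolic ribosomal proteins, made by the same ribosomes, gave 27 rises and 3 falls among 42 for the large subunit (median 0.32, with RPLP1 at 2.04 and RPL7A at 1.44) and 13 rises and 3 falls among 25 for the small subunit (median 0.22, with RPS29 at 1.06 and RPS4X at 0.72). In that ribosome the large subunit had the higher median, and in the mitochondrial ribosome the small subunit had it, a difference that was not tested. Of the cytosolic proteins 71.4% of the large-subunit and 64% of the small-subunit genes changed in either direction, beside 60% of all tested rows. Medians of all these lists carry the same dependence on scaling as those of the members.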

How the data were processed

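Cells were HAP1, 2 wild-type and 3 ZCCHC4 knockout libraries of ribosome-protected fragments, grouped by their titles. The authors deposited whole-number counts per transcript, not normalized, per the file headers and values; header names stood 1 cell left of their values. Bowtie and the hg38 build are named in the submitters' processing notes; the counter, annotation, strand setting and handling of duplicates and multiply mapped reads: not given in the sources used here. Counts were fitted in R 4.3.3 with edgeR 4.0.16 (TMM, filterByExpr with minimum count 10, glmQLFit and glmQLFTest, genotype only; 11205 rows tested), with limma 3.58.1 and DESeq2 1.42.0 as alternatives, after the procedure was tested on simulated data. The SE is the size of a log2 fold change divided by the square root of F. Transcripts were placed with GENCODE 29 (70 of 71 member rows). Per-library log2 values used a pseudocount of 0.5 CPM.

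Members and lists were chosen with earlier results of these data known. Genes named were, per subunit, up to 8 rises and 6 falls, taken by size from passing rows without overlap between genotypes, members with set roles, and the 2 smallest adjusted p of each other list; members beyond this rule were named after their values were seen. Genes with no row were not analysed here.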

Additional observations from a re-analysis of the deposited data

How the results depend on the processing

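Depth differed between genotypes, and only 2 wild-type libraries set the precision on that side. With scaling by library totals only, 24 members rose, and falls numbered 23 in all, 18 in MRPL and 5 in MRPS rows, and the medians were -0.032, -0.14 and 0.13. Median log2 fold changes for all members and for MRPS rows were 0.12 and 0.28 with upper-quartile scaling, 0.23 and 0.39 with no filter, 0.12 and 0.27 with a mean-count minimum of 50, and 0.13 and 0.27 with libraries thinned to the smallest total. After subtraction of the trend with coding length the medians were 0.063 for all, -0.0047 for MRPL and 0.20 for MRPS rows. With the near-identical libraries summed, 20 members rose and 7 fell (11 MRPL and 9 MRPS rises, no MRPS fall), with a median of 0.22; fewer samples entered that fit. That fit also called fewer of all tested rows than the main fit, so its lower counts are not a trait of these genes alone. With subunits by place, the MRPS median was 0.45. TMM-scaled sums, chosen after seeing the data, gave knockout over wild-type ratios of 1.05 for MRPL and 1.205 for MRPS rows.

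Leaving out 1 library at a time gave 24 to 36 rises and 8 to 17 falls in all, 14 to 20 rises and 8 to 15 falls in MRPL rows, and 10 to 16 rises and 0 to 2 falls in MRPS rows. Over all tested rows, 28.6% were called higher and 28.5% lower without knockout replicate 1. Without replicate 2 these shares were 37.3% and 35.9%, and without replicate 3 they were 27.4% and 27.3%. Fits that leave 1 wild-type library called fewer of all tested rows than the main fit. The range of the member counts is thus not a trait of these genes alone. The members' medians ranged from 0.16 to 0.22 for all, from -0.0048 to 0.12 for MRPL and from 0.30 to 0.39 for MRPS rows. The deviations of same-numbered libraries had correlations of -0.07 and -0.07. The wild-type pair differed little (chi-square divided by its degrees of freedom 1.14), so these values cannot show whether replicate numbers pair the libraries. With the replicate block 28 members rose and 12 fell, beside 27.4% higher and 27% lower over all tested rows. The median for MRPS rows was then 0.31. Of the 43 calls, 18 of 32 rises and 6 of 11 falls were kept in all 15 refitted alternatives.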
